A study of Homo sapiens with 45 samples.

Results

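A673 cells that carried the hairpin sh908 but had received no doxycycline were compared with parental A673 cells, 3 libraries against 3, which are 6 of the 45 libraries of the series. The 6 libraries were taken by their labels: the 3 libraries of A673 sh908 cells without doxycycline, called uninduced here, and the 3 of A673 cells with no hairpin named. A673 is an Ewing sarcoma line, and sh908 is a short hairpin RNA directed against KCNN1 that is switched on by doxycycline. The uninduced cells therefore differ from the parental cells in carrying the hairpin construct and in whatever went with making and keeping the cells that carry it, and these cannot be told apart. The labels give no vector, no control hairpin, no clone or pool, no passage number and no culture date. The other libraries were 3 of A673 sh908 cells with doxycycline, used here for reference only, and 36 of other Ewing sarcoma and osteosarcoma lines. All were poly(A) RNA libraries read as transcript estimates. Nothing in the labels says that replicates were separate cultures, so p-values measure the spread between these libraries, which may be technical.

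Ewing sarcoma cells depend on a fusion gene, which in A673 joins EWSR1 to FLI1. The fusion protein binds runs of the 4 bases GGAA and raises some genes while it lowers others. KCNN1 encodes SK1, a potassium channel opened by calcium inside the cell. FGF23 encodes a hormone normally made by bone cells that lowers phosphate and active vitamin D in the blood.

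FGF23, CTNND2 and PLVAP were among the genes that rose, and the 250 bases before the start of each are printed as context for them. The sequences are from RefSeq on GRCh38.p14, written 5′ to 3′ on the gene's strand. Capitals mark GGAA and its reverse complement TTCC. FGF23 lies on chromosome 12 from 4368227 to 4379712 on the minus strand, and its window is chr12:4379713-4379962. The CTNND2 window is chr5:11904447-11904696, before the first of 2 starts listed for that gene, and the PLVAP window is chr19:17377343-17377592, both on the minus strand.
FGF23: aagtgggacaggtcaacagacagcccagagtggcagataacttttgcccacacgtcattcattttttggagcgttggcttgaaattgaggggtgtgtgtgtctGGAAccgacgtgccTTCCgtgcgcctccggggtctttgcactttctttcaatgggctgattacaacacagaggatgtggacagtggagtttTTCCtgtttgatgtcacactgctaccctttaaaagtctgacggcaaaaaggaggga
CTNND2: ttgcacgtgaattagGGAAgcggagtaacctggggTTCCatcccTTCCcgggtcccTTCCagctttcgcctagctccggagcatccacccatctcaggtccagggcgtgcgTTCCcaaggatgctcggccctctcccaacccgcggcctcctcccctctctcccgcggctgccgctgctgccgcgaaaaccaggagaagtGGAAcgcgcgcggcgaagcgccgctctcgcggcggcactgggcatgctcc
PLVAP: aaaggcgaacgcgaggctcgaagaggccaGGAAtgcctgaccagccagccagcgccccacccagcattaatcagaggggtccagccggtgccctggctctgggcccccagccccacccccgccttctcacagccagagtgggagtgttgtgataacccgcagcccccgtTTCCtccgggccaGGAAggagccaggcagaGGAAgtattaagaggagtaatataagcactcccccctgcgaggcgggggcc
The FGF23 window held 3 matches, and 55.1% of 35116 such windows held as many or more. The CTNND2 window held 6, a count reached by 9.14% of windows, while the window before the second CTNND2 start (chr5:11588918-11589167, not printed) held 0. The PLVAP window held 4, reached by 34.3%. These are matches of letters and do not show binding.

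FGF23 RNA was present in each uninduced library and listed at 0 in each parental library. Its level was 0, 0 and 0 TPM (a transcript level scaled for length and depth) in parental replicates 1, 2 and 3, and 12.99, 11.2 and 11.4 TPM in the uninduced libraries. FGF23 has the gene ID 8074. No count fell in any parental library, against 1296 estimated counts over the 3 uninduced libraries, so the difference was at least 777-fold, taking 3 counts over the parental group as the floor (counting error only). The groups did not overlap and the 3 uninduced libraries lay close together. With edgeR's quasi-likelihood test and Benjamini-Hochberg adjustment over 15778 genes, the FDR (false discovery rate) was 0.004699. It was 0.0515 without parental replicate 1, 0.0538 without parental replicate 2 and 0.0318 without parental replicate 3. The doxycycline-treated libraries measured 11.95, 11.1 and 17.9 TPM. In the 36 libraries of other lines the level reached 0.803 TPM at most, in TC71. In RNA from whole cultures, more cells that make an RNA and more RNA per cell cannot be told apart. All FGF23 signal came from the single transcript listed, NM_020638.3.

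Genes beside FGF23 on chromosome 12 did not share this pattern. FGF6, on one side, had at most 0.112 TPM in any of the 6 libraries. TIGAR, on the other side, a regulator of glycolysis, measured 4.31, 3.67 and 4.195 TPM in parental and 2.22, 1.70 and 1.73 TPM in uninduced libraries (log2 fold change -0.62, FDR 0.145). DYRK4, a protein kinase gene further along, was the one tested neighbour of those examined that was called (log2 fold change 0.70, FDR 0.0358), and its level moved only from between 31.5 and 34.6 TPM to between 33.9 and 43.2 TPM.

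Around FGF23, a list of 24 genes of phosphate and vitamin D handling held 16 that could be tested, of which 3 were called higher (FGF23, CYP24A1 and FGFR4) and 0 lower. That was 18.75% of the list. Over all genes, 15.1% of 15778 were called at an FDR under 0.05 in either direction and 8.71% were called higher. FGF23 itself is 1 of the 3. CYP24A1, the enzyme that breaks down active vitamin D, measured 0.225, 0.148 and 0.128 TPM in parental and 1.93, 1.74 and 1.57 TPM in uninduced libraries. Its levels were low in all 6 libraries, without overlap between the groups (log2 fold change 3.99, SE 0.41, FDR 0.00613). In the 36 libraries of other lines CYP24A1 reached 12.6 TPM. FGFR4, a receptor that can bind FGF23, measured 31.4, 36.9 and 42.6 TPM in parental and 37.8, 41.01 and 63.4 TPM in uninduced libraries (log2 fold change 0.79, SE 0.15, FDR 0.0207), and on the TPM scale the groups overlapped. KL, which encodes the co-receptor klotho, had at most 0.11 TPM in any of the 6 libraries and was not tested. FGFR1, the main receptor partner of klotho, measured 25.7, 29.1 and 27.8 TPM in parental and 28.1, 22.8 and 26.3 TPM in uninduced libraries and was not called (FDR 0.286). Across all 45 libraries the genes whose log2 CPM (counts scaled to library size) ranked most like FGF23 were ALG12, TMBIM6, PHPT1, YAF2 and RNF130, with Spearman rho from 0.585 to 0.646 among 12369 genes. FGF23 was near 0 in most of these libraries, so its ranks there rest on few counts.

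**Figure D1:**
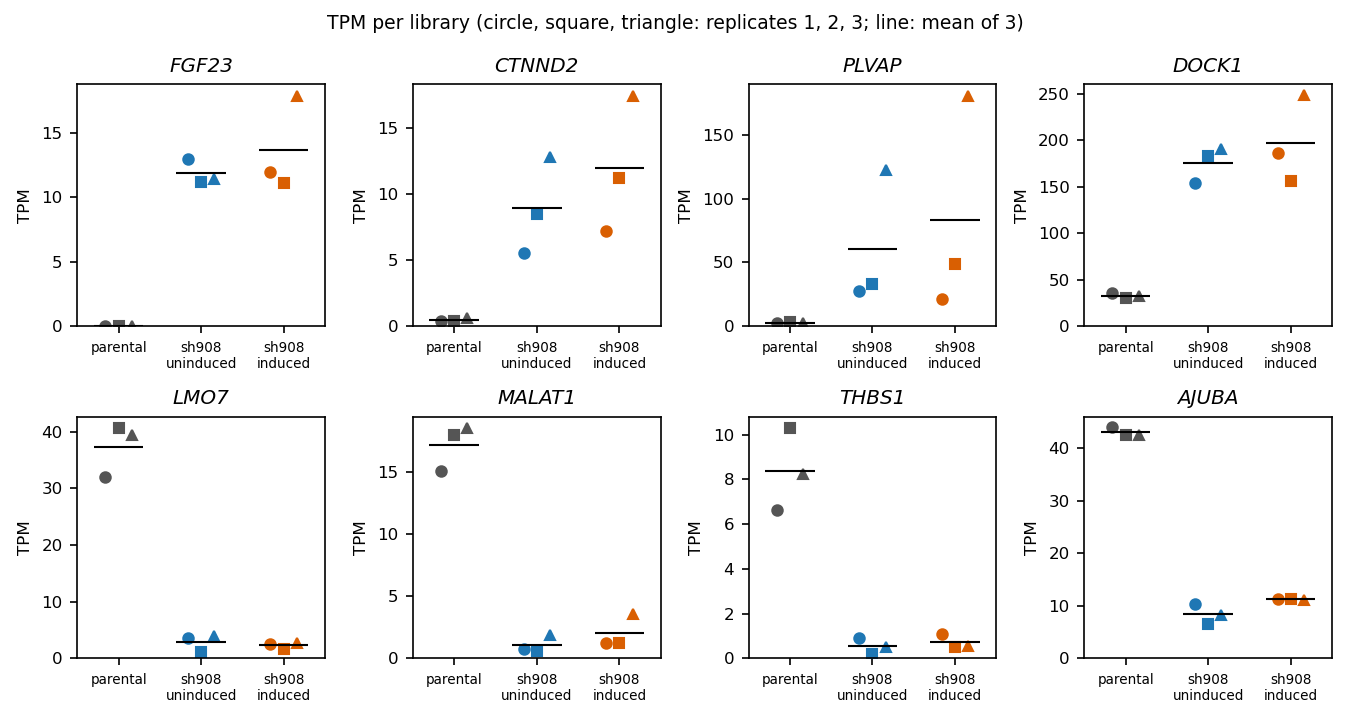
TPM of 8 genes (vertical axes, each from 0) in parental, uninduced sh908 and doxycycline-treated sh908 A673 libraries; circle, square and triangle are replicates 1, 2 and 3 and the line is their mean. The uninduced libraries lie above every parental library for FGF23, CTNND2, PLVAP and DOCK1 and below every one for LMO7, MALAT1, THBS1 and AJUBA.

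The targeted gene served as the first check of the labels. KCNN1 measured 31.97, 38.9 and 37.2 TPM in parental and 37.8, 35.3 and 17.99 TPM in uninduced libraries. Uninduced replicates 1 and 2 lay within the parental range and replicate 3 lay below it. In log2 CPM scaled by trimmed means of M values (TMM), replicates 1, 2 and 3 differed from the parental mean by 0.72, 0.66 and -0.94. The log2 fold change of 0.31 (SE 0.41) was not called at an FDR of 0.625, and without uninduced replicate 3 it was 0.69 with an FDR of 3.5e-05. That call belongs to the CPM scale, since on the TPM scale replicates 1 and 2 did not leave the parental range. The doxycycline-treated libraries measured 10.2, 13.7 and 7.75 TPM.

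Other members of the channel family were low. KCNN3, which encodes SK3, measured 0.1297, 0.0994 and 0.134 TPM in parental and 0.212, 0.3295 and 0.725 TPM in uninduced libraries and was called higher (log2 fold change 2.16, SE 0.40, FDR 0.0201). KCNN4 stayed under 1 TPM in all 6 libraries and was not called (FDR 0.947), nor was KCNMA1, the large-conductance channel, which stayed under 0.12 TPM. KCNN2 had too few counts to be tested.

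FLI1, whose rows can also take reads of the fusion transcript, measured 46.5, 40.996 and 40.96 TPM in parental and 23.7, 24.8 and 12.6 TPM in uninduced libraries. All 3 uninduced values were below all 3 parental values in TPM, and replicate 3 was the lowest. In log2 CPM the differences were -0.21, -0.11 and -1.70 and the log2 fold change of -0.52 (SE 0.39) was not called at an FDR of 0.387. EWSR1 was not called either (FDR 0.9695).

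The TPM and CPM scales differed. The 100 most abundant genes held 30.4% to 31.4% of TPM in the parental libraries and 42.99%, 43.98% and 35.9% in uninduced replicates 1, 2 and 3. The median gene differed from the parental mean by -0.58, -0.63 and -0.10 in log2 TPM, but by 0.06, 0.04 and -0.03 in log2 CPM after TMM scaling. Fold changes and calls here are on the TMM scale, and levels are in TPM. Of the 1375 genes called higher, 967 were also higher in TPM in all 3 uninduced libraries and 408 overlapped. Of the 1013 called lower, 1009 were lower in TPM in all 3.

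Every sh908 library ranked genes most like parental A673 among the lines (Spearman rho 0.927 to 0.947 over 12369 genes), and the next line was TC71 or MHHES1 with at most 0.849. CDKN2A, which A673 is known to lack, was at 0 in all 9 A673 libraries, and ERG, the partner in other Ewing sarcoma fusions, stayed under 0.02 TPM. Of 12 osteosarcoma markers 7 could be tested, and edgeR, DESeq2 and limma voom called 0 on the 6 libraries, with 0 at an unadjusted p under 0.05 in edgeR. The edgeR fit of all 45 libraries called 1 higher of 11 tested, where it called 3699 of 23589 genes higher. Without uninduced replicate 3 edgeR called 1 higher and 2 lower, where it called 10202 of 16379 genes in all. Their summed level was 287 to 314 TPM in parental and 115 to 416 TPM in uninduced libraries, with INHBB, SMIM10 and IBSP at 0 in some libraries. Of 8 fibroblast markers, TWIST2 was called higher and COL3A1 lower of 4 tested, where 8.71% of all genes were called higher and 6.42% lower, and the sum was 107 to 111 TPM in parental and 47.5 to 68.9 TPM in uninduced libraries. LUM and PRRX1 were among those at 0. Total estimated counts were 26814221 to 37815602 per parental and 16619617 to 22870909 per uninduced library, and the median gap between transcript length and effective length was 180 to 190 nt and 140 to 158 nt. The library sets therefore differed in depth and in this length measure as well as in the hairpin, and their part in the results was not tested except by the alternatives named.

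In all, 1375 genes were called higher (8.71%) and 1013 lower (6.42%) in uninduced cells, and for each of these 2388 the 3 log2 CPM values of one group lay wholly above those of the other. Values that did not overlap occurred in 20.3% (higher) and 22.5% (lower) of all genes tested. A difference of at least 2-fold from the parental mean in each of the 3 uninduced libraries was seen for 488 genes above (3.09%) and 591 below (3.75%), of which 437 (2.77% of genes tested) and 414 (2.62%) were called. Leaving out 1 library moved the counts strongly. Without uninduced replicate 1 there were 1377 called genes, without replicate 2 there were 266 and without replicate 3 there were 10202. Without parental replicate 1, 2 or 3 there were 4, 2 and 8, although 3432 to 3617 genes then had an unadjusted p under 0.05. Among the 92 called genes that the rule for named genes took, RPL13AP5 and HNRNPA1L3 kept an FDR under 0.05 with every single parental library left out. The FDR of the others rose to between 0.0538 and 0.211 with 1 of the parental libraries left out, so each of those calls was lost with at least 1 parental library left out, and without parental replicate 1 or 2 IGFBP3 dropped below the filter on low counts. A smaller set of 263 genes, 182 of them higher, was called in the full comparison and again with any 1 uninduced library left out. Without uninduced replicates 1, 2 and 3, respectively, 66, 32 and 91 of the 92 kept their call. The 31 of the 92 that kept it whichever uninduced library was left out included FGF23, 11 of the 12 rises, the 12 falls and, from the gene lists, NKX2-2, CYP24A1, NDRG1, RPS14 and ANKRD1. The calls of the remaining list genes described below rest on uninduced replicate 1 or 2 as well.

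By the naming rule, the 12 rises were those largest in their weakest uninduced library. CTNND2, which encodes delta-catenin of cell junctions, measured 0.405, 0.369 and 0.5796 TPM in parental and 5.52, 8.49 and 12.8 TPM in uninduced libraries (log2 fold change 4.73, SE 0.31, FDR 0.00351). PLVAP, a membrane protein known from blood vessel lining, measured 2.16, 2.99 and 2.17 TPM in parental and 27.2, 32.7 and 122 TPM in uninduced libraries (log2 fold change 4.93, SE 0.50, FDR 0.00613). Replicate 3 was several times higher than the other two, yet all lay far above parental cells. In the other 36 libraries PLVAP reached 4.21 TPM at most, while CTNND2 reached 9.73 TPM, above its level in uninduced replicates 1 and 2.

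TSPAN8, a tetraspanin, showed a wide spread among uninduced libraries. It measured 3.01, 3.32 and 2.73 TPM in parental and 15.5, 34.6 and 371 TPM in uninduced libraries (log2 fold change 5.66, SE 1.13, FDR 0.0243). It was the one of the 12 that lost its call with an uninduced library left out, at an FDR of 0.0564 without replicate 2, and limma voom gave 0.0671. ADD2, a membrane skeleton protein, rose from 0.217, 0.183 and 0.213 to 1.37, 1.16 and 2.49 TPM (log2 fold change 3.35, SE 0.28, FDR 0.00481).

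SPTLC3, a subunit of the enzyme that begins sphingolipid synthesis, measured 17.3, 17.3 and 23.2 TPM in parental and 98.03, 92.6 and 118 TPM in uninduced libraries (log2 fold change 2.87, SE 0.19, FDR 0.00351). The 3 uninduced values were similar to one another and above the 49.03 TPM that was the highest of the other 36 libraries. KCNH2, a voltage-gated potassium channel, measured 4.02, 4.24 and 5.74 TPM in parental and 17.6, 20.03 and 46.3 TPM in uninduced libraries (log2 fold change 2.87, SE 0.28, FDR 0.00613). HR, a nuclear corepressor, measured 3.53, 2.62 and 2.896 TPM in parental and 12.4, 14.9 and 30.2 TPM in uninduced libraries (log2 fold change 3.03, SE 0.23, FDR 0.004699). For both, replicate 3 was the highest library.

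SP6, a transcription factor, measured 1.35, 1.13 and 2.04 TPM in parental and 5.804, 6.697 and 8.65 TPM in uninduced libraries (log2 fold change 2.67, SE 0.26, FDR 0.00613). The other 36 libraries reached 31.1 TPM of SP6, 42.4 TPM of HR and 32.5 TPM of ADD2, above every uninduced library. They reached 15.1 TPM of KCNH2 and 5.19 TPM of TSPAN8, below every uninduced library. RNA28SN2, a ribosomal RNA gene, rested on 1 parental count (ratio 6629, interval 1190 to 261841 by exact 95% limits, counting error only), and its TPM ran from 8.76 to 39.5 in uninduced libraries and to 1325 elsewhere. Poly(A) selection is meant to remove this RNA.

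DOCK1 rose, and the estimates of its transcripts changed places. The gene encodes an exchange factor for RAC that acts in cell spreading and engulfment, and lies on chromosome 10 from 126905428 to 127452516. Its summed level was 36.03, 29.9 and 32.01 TPM in parental and 154, 184 and 190.5 TPM in uninduced libraries, without overlap (log2 fold change 2.96, SE 0.21, FDR 0.00359). The leading parental transcript, NM_001380.5 (6777 nt), measured 22.2, 23.3 and 23.3 TPM in parental libraries and was listed at 0 in all 3 uninduced and all 3 doxycycline-treated ones. In the 36 libraries of other lines it ranged from 2.66 to 22.97 TPM. XM_047424702.1 (6866 nt) measured 0, 0 and 0.359 TPM in parental and 122, 153 and 113 TPM in uninduced libraries. Elsewhere that transcript reached 0.479 TPM at most, so the sh908 libraries were the ones where it led. XM_047424703.1 (6938 nt) also went up, from 1.23, 1.07 and 0.435 to 23.4, 21.03 and 41.2 TPM, as did NM_001377560.1 (5985 nt), from 0.1998, 0 and 0 to 8.13, 9.403 and 35.7 TPM. Without parental replicate 1, 2 or 3 the FDR of the gene sum was 0.057, 0.0589 and 0.0559.

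DOCK1 was one of 2 genes with such an exchange, chosen after the values were seen: at least 5 TPM of 1 transcript in each library of one group and under 0.5 TPM in each of the other, with another transcript of the gene doing the reverse. Over all transcripts, 42 were lost and 15 gained in this sense in all 3 uninduced libraries. The other gene was RBM11, which encodes a splicing factor and lies on chromosome 21. Its transcript XM_005260997.6 (1651 nt) measured 79.7, 73.5 and 77.2 TPM in parental libraries and at most 1.96e-08 TPM in uninduced ones. NM_001320602.2 (1976 nt) measured under 0.0001 TPM in parental libraries and 11.2, 20.6 and 58.05 TPM in uninduced ones. For the summed RBM11 count the log2 fold change was 0.17 (SE 0.21) and the FDR 0.606. Splits between transcripts of 1 gene are estimates of the program that assigned the reads, and no test was made on them.

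Several of the largest falls were copies of other genes. RPL13AP5, a processed copy of the ribosomal protein gene RPL13A, measured 803, 835 and 726 TPM in parental and 0, 0.8599 and 0.571 TPM in uninduced libraries (log2 fold change -10.18, SE 0.49, FDR 0.00166). HNRNPA1P10 and HNRNPA1L3, copies of the RNA-binding protein gene HNRNPA1, went from 539, 398 and 392 to 1.23, 2.096 and 6.14 TPM and from 411, 385 and 387 to 5.15, 4.52 and 3.98 TPM. NUDT4P2 went from 28.3, 28.4 and 33.2 TPM to 0 in every uninduced library, at least 1045-fold lower by the floor of 3 counts over the group. The doxycycline-treated replicates 1, 2 and 3 had 0, 7.38 and 0.368 TPM of NUDT4P2, so its absence did not hold in all sh908 libraries. Its lowest level in the other 36 libraries was 7.8e-05 TPM. By 31-base words of GENCODE 29 transcripts, 90.0% of RPL13AP5, 95.2% of HNRNPA1P10 and 100% of NUDT4P2 also occur in other genes, so the assignment of reads between copies is uncertain.

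Sums over each family moved less than the copies. RPL13A with RPL13AP5 gave 2653, 2774 and 2768 TPM in parental and 3046, 3301 and 3514 TPM in uninduced libraries, while RPL13A by itself was called higher (log2 fold change 1.27, SE 0.21, FDR 0.0155). The HNRNPA1 family gave 2885, 2679 and 2850 TPM in parental and 2345, 2387 and 1545 TPM in uninduced libraries. NUDT4, NUDT4B and NUDT4P2 together gave 108.9, 110.1 and 105.4 TPM in parental and 43.6, 42.6 and 55.96 TPM in uninduced libraries. BOLA2B, a rise (log2 fold change 4.14, SE 0.25, FDR 0.00351), shares 93.0% of its words with other genes, and with BOLA2 it gave 281, 297 and 286 TPM in parental and 396, 368 and 342 TPM in uninduced libraries. The loss of RPL13AP5 and of the HNRNPA1 copies was shared by the doxycycline-treated libraries, while the other 36 had at least 5.32 TPM of RPL13AP5, 80.1 TPM of HNRNPA1P10 and 208 TPM of HNRNPA1L3. Among the named genes matched to GENCODE 29, 28 of 119 shared at least 10% of their words, NPIPA1 (88.2%) and NBPF26 (82.5%) of the 12 falls included, and their values are uncertain.

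**Figure D2:**
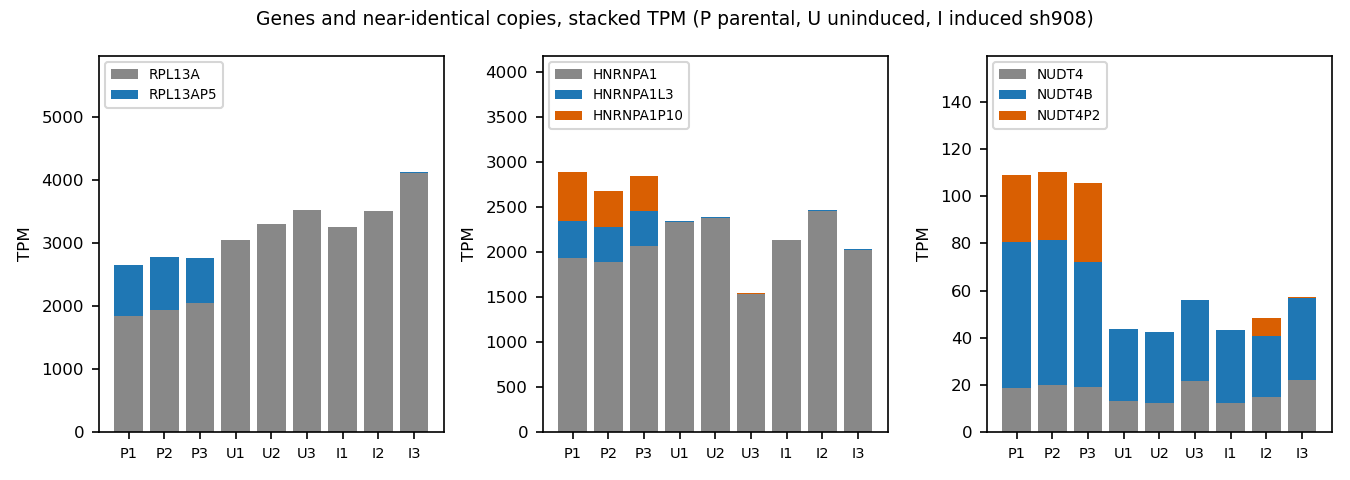
Stacked TPM of 3 genes with their near-identical copies in parental (P), uninduced (U) and doxycycline-treated (I) A673 libraries 1 to 3. RPL13AP5, HNRNPA1L3 and HNRNPA1P10 form a visible part of each parental bar and almost none of the sh908 bars, while the NUDT4 bars are lower in all sh908 libraries.

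The falls outside copy families were the following. LMO7, a scaffold of adherens junctions, measured 32.01, 40.7 and 39.5 TPM in parental and 3.57, 1.09 and 4.01 TPM in uninduced libraries (log2 fold change -3.31, SE 0.40, FDR 0.00969). MALAT1, a nuclear long noncoding RNA, measured 15.1, 17.96 and 18.6 TPM in parental and 0.717, 0.614 and 1.89 TPM in uninduced libraries (log2 fold change -3.66, SE 0.29, FDR 0.004699). No other line had less than 6.64 TPM of MALAT1, so the uninduced libraries lay below the whole series apart from the doxycycline-treated ones, which had 1.27, 1.23 and 3.61 TPM. THBS1, the matrix glycoprotein thrombospondin, measured 6.64, 10.3 and 8.23 TPM in parental and 0.896, 0.197 and 0.505 TPM in uninduced libraries (log2 fold change -3.50, SE 0.54, FDR 0.0142).

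MIR22HG, the host transcript of a microRNA, measured 6.23, 12.2 and 8.77 TPM in parental and 0.651, 0.713 and 1.2997 TPM in uninduced libraries (log2 fold change -3.10, SE 0.38, FDR 0.00969). IGFN1 measured 1.86, 2.43 and 3.83 TPM in parental and 0.266, 0.0807 and 0.232 TPM in uninduced libraries (log2 fold change -3.85, SE 0.58, FDR 0.0132), and ENTREP2 measured 2.49, 3.44 and 3.65 TPM in parental and 0.262, 0.154 and 0.2103 TPM in uninduced libraries (log2 fold change -3.53, SE 0.38, FDR 0.00684). None of these overlapped between the groups. By class, 1317 of the 1375 genes called higher were protein coding and 55 were long noncoding RNAs, against 824 and 147 of the 1013 called lower and 13210 and 2085 of all 15778 tested.

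Of 30 genes that the EWSR1-FLI1 fusion is known to raise, all tested, 3 were called higher and 1 lower, with a median log2 fold change of 0.09 against 0.01 over all genes, so the share called was near the background of 15.1%. NKX2-2, a transcription factor of Ewing sarcoma, measured 26.3, 22.8 and 25.1 TPM in parental and 34.7, 38.8 and 51.7 TPM in uninduced libraries (log2 fold change 1.21, SE 0.13, FDR 0.00621), and it was among the 263 genes above. PRKCB, a protein kinase, measured 63.5, 51.1 and 51.3 TPM in parental and 70.9, 76.2 and 87.3 TPM in uninduced libraries (log2 fold change 0.90, SE 0.17, FDR 0.0208), and PPP1R1A, a phosphatase inhibitor, 62.96, 52.3 and 48.7 TPM in parental and 72.7, 66.4 and 76.2 TPM in uninduced libraries (log2 fold change 0.87, SE 0.18, FDR 0.0277). NR0B1, a repressor that the fusion drives through GGAA repeats, was not called (55.3, 50.5 and 47.1 TPM in parental and 45.6, 39.3 and 28.3 TPM in uninduced libraries, FDR 0.836). By library the list's median log2 ratio was 0.13 and 0.20 in replicates 1 and 2 and -0.40 in replicate 3.

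Of 16 genes that the fusion is known to lower, all tested, 6 were called lower and 1 higher, where 6.42% and 8.71% of all genes were, with a median log2 fold change of -1.03, and library medians of -0.85, -1.13 and -1.23. The 6 were IGFBP3, ANXA1, PHLDA1, TNC, THBS1 and CCN1, and the 1 higher was CDKN1A, the cell cycle inhibitor p21. CCN1, a matrix signalling protein, measured 41.99, 61.6 and 38.6 TPM in parental and 11.3, 5.44 and 4.19 TPM in uninduced libraries (log2 fold change -2.22, SE 0.50, FDR 0.0335). PHLDA1 measured 3.81, 5.76 and 3.5997 TPM in parental and 1.21, 0.451 and 0.528 TPM in uninduced libraries (log2 fold change -2.07, SE 0.51, FDR 0.0405). TNC, the matrix protein tenascin C, measured 36.1, 28.7 and 38.6 TPM in parental and 4.01, 5.05 and 17.6 TPM in uninduced libraries, with replicate 3 nearest to parental cells (log2 fold change -1.67, SE 0.40, FDR 0.0394). IGFBP3 was under 0.45 TPM in all 6 libraries. With the trend on GC content and transcript length removed, 4 were called lower and 1 higher.

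Targets of TGF-beta and of the YAP coactivator, the readouts of cell tension and attachment, gave 5 lower and 1 higher of 16 tested (median log2 fold change -0.44), where 6.42% of all genes were called lower and 8.71% higher. ANKRD1 measured 8.37, 19.8 and 10.7 TPM in parental and 0.464, 0 and 0.182 TPM in uninduced libraries (log2 fold change -5.38, SE 0.87, FDR 0.0157). AJUBA, an adaptor of junctions and of the Hippo pathway, measured 44.1, 42.6 and 42.6 TPM in parental and 10.3, 6.54 and 8.21 TPM in uninduced libraries (log2 fold change -1.92, SE 0.25, FDR 0.0108), and AMOTL2, which holds YAP outside the nucleus, 56.3, 67.3 and 53.9 TPM in parental and 17.7, 8.53 and 8.56 TPM in uninduced libraries (log2 fold change -1.83, SE 0.41, FDR 0.0315). LATS2, a kinase that restrains YAP, was also lower, and CCN1 stands in this list too. ACTA2, smooth muscle actin, was the 1 called higher (414, 456 and 424 TPM in parental and 509, 498 and 524 TPM in uninduced libraries, FDR 0.0468). Without uninduced replicate 2, which had the lowest list median at -1.10, ANKRD1 was the 1 gene of the list that was called. The median log2 fold change of the list was -0.73 without uninduced replicate 3 and -0.25 without parental replicate 2.

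Extracellular matrix genes gave 7 lower and 1 higher of 26 tested (median -0.42), or 30.8% called against 15.1% of all genes. POSTN, periostin, measured 5.55, 13.1 and 9.23 TPM in parental and 2.16, 1.19 and 1.03 TPM in uninduced libraries (log2 fold change -2.23, SE 0.50, FDR 0.0329). COL3A1, a fibrillar collagen, measured 37.3, 44.4 and 37.3 TPM in parental and 14.5, 10.5 and 21.1 TPM in uninduced libraries (log2 fold change -0.96, SE 0.17, FDR 0.0183), and FBN1, fibrillin, 6.99, 6.18 and 6.05 TPM in parental and 2.87, 1.59 and 2.304 TPM in uninduced libraries (log2 fold change -1.04, SE 0.26, FDR 0.0436). The others were COL4A1, LAMB1, THBS1 and TNC. COL6A1 was the 1 called higher, with TPM values that overlapped between the groups. THBS1 and TNC stand in both this list and that of fusion-repressed genes, and CCN1 in that list and the YAP list, so the 3 lists are not separate counts.

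Of 28 cytosolic ribosomal protein genes, all tested, 10 were called higher, where 8.71% of all genes were, and 0 lower, with a median log2 fold change of 0.77, and 20 had log2 CPM above the parental range in all 3 uninduced libraries, where 20.3% of all genes did. RPS14, a protein of the small subunit, measured 554, 644 and 614 TPM in parental and 974, 1048 and 1765 TPM in uninduced libraries (log2 fold change 1.47, SE 0.18, FDR 0.00914). RPL32, of the large subunit, measured 552, 597 and 577 TPM in parental and 967, 1049 and 1049 TPM in uninduced libraries (log2 fold change 1.30, SE 0.21, FDR 0.0153). The list medians were 0.90 and 0.999 in replicates 1 and 2 and 0.37 in replicate 3, and without replicate 3 all 28 were called higher, where 4761 of 16379 genes were. Without uninduced replicate 1 or 2 edgeR called 7 and 2, and without parental replicate 1, 2 or 3 it called 0 each time, with list medians of 0.73 to 0.83. These are short transcripts. Called higher genes had a median transcript length of 2503 nt and a GC content of 55.5%, against 4782.5 nt and 44.7% for called lower genes and 3696 nt and 47.9% for the rest. Across 11239 genes the log2 ratio ranked with GC content at a Spearman rho of 0.39 and 0.34 in replicates 1 and 2 and 0.09 in replicate 3, and with length at -0.37, -0.41 and -0.07, as a description over genes that share a library. Parental libraries deviated from one another with GC content at a rho of -0.47, 0.24 and 0.27 and with length at 0.27, -0.35 and 0.12. With both trends removed, 11 ribosomal protein genes were called higher and the median was 0.59.

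**Figure D3:**
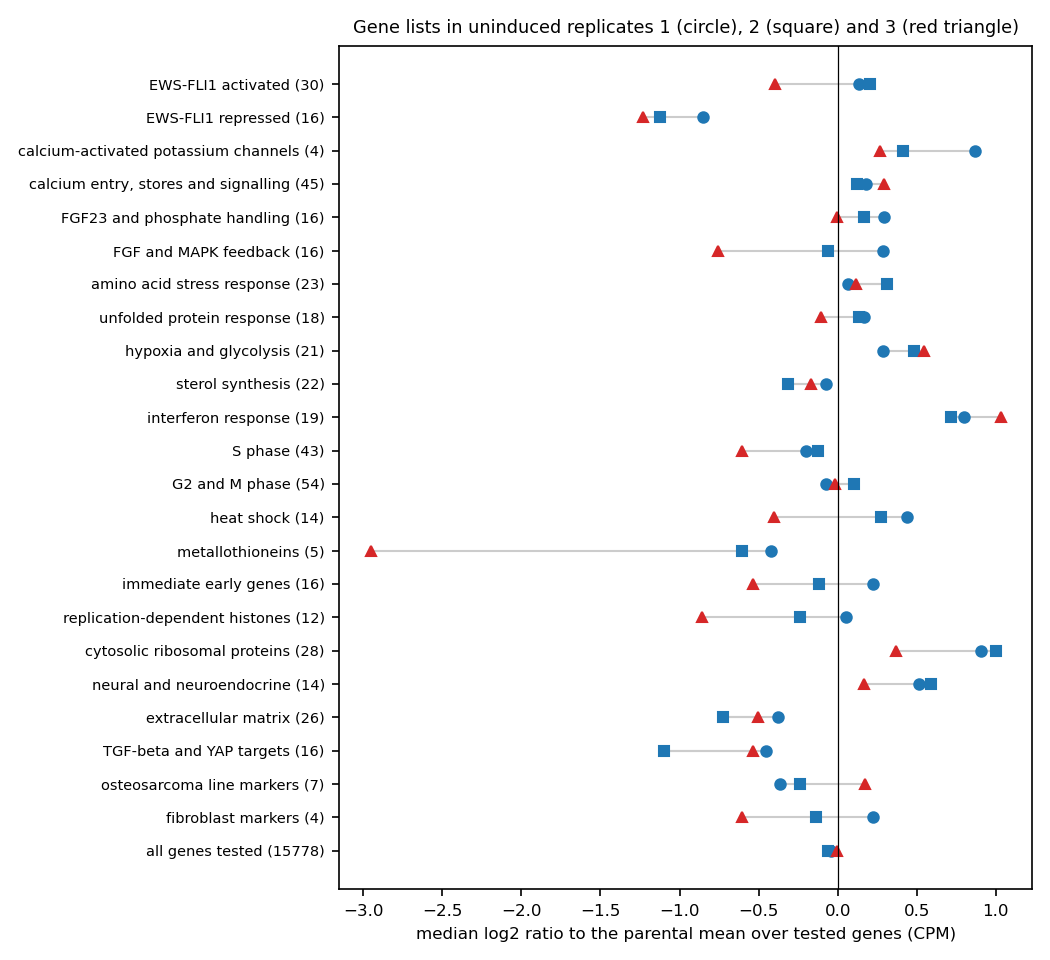
Median log2 CPM ratio to the parental mean (horizontal axis) over the tested genes of each list (number in brackets) for uninduced replicates 1 (circle), 2 (square) and 3 (red triangle). Fusion-repressed genes lie at -0.85 to -1.23 and ribosomal protein genes at 0.37 to 0.999, while the metallothionein point of replicate 3 lies at -2.95.

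Of 43 S phase genes, 7 were called lower and 0 higher (16.3% called, median -0.23), where 6.42% of all genes were called lower and 8.71% higher. Without overlap, 19 of the 43 were lower and 0 higher, where 22.5% and 20.3% of all genes were. UHRF1, which guides DNA methylation after replication, measured 194, 185 and 188 TPM in parental and 43.5, 25.996 and 84.8 TPM in uninduced libraries (log2 fold change -1.53, SE 0.27, FDR 0.0193). CCNE2, cyclin E2, measured 15.4, 13.2 and 13.4 TPM in parental and 4.45, 3.22 and 5.32 TPM in uninduced libraries (log2 fold change -1.16, SE 0.22, FDR 0.0199), and HELLS, a chromatin remodeller, 51.8, 43.6 and 47.5 TPM in parental and 20.5, 20.6 and 25.8 TPM in uninduced libraries (log2 fold change -0.80, SE 0.12, FDR 0.0136). Of 54 G2 and M phase genes, 5 were called higher and 4 lower (16.7% called, near the 15.1% of all genes, median -0.02). The 5, which were UBE2C, CKS2, AURKB, PSRC1 and CCNB1, overlapped between groups on the TPM scale. ANLN, the cytokinesis protein anillin, was among the 4 lower, at 116, 106 and 113 TPM in parental and 43.7, 39.7 and 62.9 TPM in uninduced libraries (log2 fold change -0.77, SE 0.13, FDR 0.01597). With the GC and length trend removed, 4 S phase genes were called lower, and in G2 and M phase 2 were called higher and 1 lower. Replication-dependent histone genes were read only through RNA with a poly(A) tail, since these were poly(A) libraries, so their counts are no measure of replication. Of 12 such genes edgeR and limma voom called 0 on the 6 libraries. H2AC6 and H2BC4 were lower at unadjusted p-values of 0.0419 and 0.01402 in edgeR. DESeq2 called 1 of the 12 lower, where it called 1880 of 15778 genes lower. The edgeR fit of all 45 libraries called 2 lower of 14 tested, where it called 3859 of 23589 genes lower. Without uninduced replicate 3 edgeR called 3 higher and 2 lower of 13 tested, where it called 10202 of 16379 genes in all.

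Stress and nutrient lists held calls in both directions. In the amino acid stress response, 3 were called higher (ASNS, SHMT2 and PCK2) and 3 lower (ATF3, SLC7A11 and ALDH1L2) of 23 tested (26.1% called, against 15.1% of all genes). PCK2 overlapped between the groups on the TPM scale. ASNS, asparagine synthetase, measured 99.7, 106 and 80.2 TPM in parental and 138, 240.2 and 167 TPM in uninduced libraries (log2 fold change 1.40, SE 0.31, FDR 0.03099). SLC7A11, the cystine transporter, measured 17.5, 22.2 and 18.4 TPM in parental and 5.57, 4.205 and 5.55 TPM in uninduced libraries (log2 fold change -1.49, SE 0.21, FDR 0.0117). Of 18 unfolded protein response genes, MANF was called higher and PDIA4 lower (11.1% called). In the hypoxia and glycolysis list 4 were called higher and 0 lower of 21 (median 0.62), or 19.05% where 8.71% of all genes were called higher, and without uninduced replicate 3 the median was 0.37. NDRG1 measured 2.24, 2.304 and 2.02 TPM in parental and 4.199, 3.08 and 7.74 TPM in uninduced libraries (log2 fold change 1.56, SE 0.26, FDR 0.0162), and BHLHE40, a repressor of the clock, 4.93, 5.31 and 5.77 TPM in parental and 9.45, 8.06 and 10.05 TPM in uninduced libraries (log2 fold change 1.25, SE 0.19, FDR 0.0132).

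Of 22 sterol synthesis genes, 3 were called lower and 2 higher (22.7% called, against 15.1% of all genes). The 2 higher, FDPS and SREBF2, overlapped between the groups on the TPM scale. CYP51A1, an enzyme of cholesterol synthesis, was among the lower, at 118, 88.8 and 93.7 TPM in parental and 37.3, 37.9 and 37.7 TPM in uninduced libraries (log2 fold change -0.91, SE 0.21, FDR 0.0344). Of 19 interferon response genes, 3 were called higher (OAS1, IFI44L and IFIH1) and 0 lower, and the median was 0.81. That was 15.8%, where 8.71% of all genes were called higher, and 9 of the 19 were higher without overlap and 0 lower, where 20.3% and 22.5% of all genes were. IFIH1, a sensor of double-stranded RNA, measured 1.29, 1.005 and 1.12 TPM in parental and 1.64, 1.75 and 3.28 TPM in uninduced libraries (log2 fold change 1.34, SE 0.26, FDR 0.0222). Levels of the 3 called genes were low, and replicate 3 had the highest TPM for all 3. OAS1 overlapped between the groups in TPM, and its FDR in the edgeR fit of all 45 libraries was 0.294.

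HSPB1, a small heat shock protein, was the 1 called of 14 heat shock genes (7.14%, where 8.71% of all genes were called higher), at 579, 602 and 597 TPM in parental and 1016, 1034 and 957 TPM in uninduced libraries (log2 fold change 1.32, SE 0.23, FDR 0.0178). Of 5 metallothionein genes tested, MT1E and MT1G were called lower, where 6.42% of all genes were. MT1E measured 32.1, 37.8 and 35.9 TPM in parental and 0.925, 1.01 and 0 TPM in uninduced libraries (log2 fold change -5.05, SE 0.79, FDR 0.0146), and replicate 3 had none. Of 16 immediate early genes 3 were called lower, JUN, ATF3 and NR4A3, or 18.75%, where 6.42% of all genes were called lower. The list median was -0.07, and by library 0.22, -0.12 and -0.54. DESeq2 called 4 higher and 4 lower, where it called 4169 of 15778 genes. Without uninduced replicate 3 edgeR called 7 higher and 4 lower of 18 tested (median 0.21), where it called 10202 of 16379 genes. JUN measured 29.6, 27.8 and 24.3 TPM in parental and 9.57, 7.29 and 8.68 TPM in uninduced libraries (log2 fold change -1.20, SE 0.21, FDR 0.0184). Of 16 genes of FGF and MAPK feedback, PHLDA1 and LIF were called lower and 0 higher (12.5% called, where 6.42% of all genes were lower, median -0.09). The list's median log2 ratio was 0.29, -0.06 and -0.76 in replicates 1, 2 and 3. Without uninduced replicate 3 the median was 0.19, and 6 were called higher and 2 lower, where 10202 of 16379 genes were called. With GC and length trends removed the median was 0.10. LIF was under 0.5 TPM in all 6 libraries.

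Of 58 genes of calcium entry, stores and signalling, 45 could be tested, of which 7 were called higher and 3 lower (22.2% called, against 15.1% of all genes, median 0.20). Those higher included ATP2A3, ATP2B3, ATP2B4, CALM3, PPP3CB and S100A11, and those lower were ATP2B1, MICU2 and RCAN1. S100A11, a calcium-binding protein, measured 362, 427 and 366 TPM in parental and 548, 532 and 576 TPM in uninduced libraries (log2 fold change 1.11, SE 0.20, FDR 0.0188). MICU2, a gatekeeper of mitochondrial calcium uptake, measured 73.6, 73.6 and 64.1 TPM in parental and 25.8, 27.5 and 44.2 TPM in uninduced libraries (log2 fold change -0.67, SE 0.13, FDR 0.0237). RCAN1, an inhibitor of calcineurin, measured 16.8, 23.95 and 20.5 TPM in parental and 8.004, 6.76 and 8.05 TPM in uninduced libraries (log2 fold change -0.92, SE 0.22, FDR 0.0388). ATP2B4, CALM3 and PPP3CB overlapped between groups in TPM.

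Of 14 neural and neuroendocrine genes tested, CHGA, NEFM and GAP43 were called higher and NEFH lower, or 28.6% called against 15.1% of all genes. CHGA, chromogranin A of secretory granules, measured 7.15, 5.48 and 7.42 TPM in parental and 13.02, 17.8 and 13.1 TPM in uninduced libraries (log2 fold change 1.64, SE 0.32, FDR 0.0222). GAP43, of growing nerve endings, measured 59.4, 76.5 and 76.7 TPM in parental and 117, 96.4 and 104 TPM in uninduced libraries (log2 fold change 1.09, SE 0.23, FDR 0.0274). NEFM, a neurofilament, measured 27.4, 22.5 and 28.3 TPM in parental and 67.6, 69.1 and 32.2 TPM in uninduced libraries (log2 fold change 1.66, SE 0.43, FDR 0.0454), and its replicate 3 was close to parental cells.

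Uninduced replicate 3 stood apart from replicates 1 and 2. The labels do not say whether the 3 came from 1 derivative or were prepared together with the parental libraries. Replicates 1 and 2 correlated at a Pearson r of 0.986 in log2 CPM, and replicate 3 at 0.888 and 0.896 with them and at 0.889 to 0.898 with the parental libraries, which correlated at 0.992 to 0.994 among themselves. Among 11935 genes above a mean of 1 in log2 CPM, 697 were at least 2-fold above the parental mean in replicates 1 and 2, of which 284 were so in replicate 3 as well, 397 lay within 2-fold there and 16 were at least 2-fold lower. Of 849 genes at least 2-fold lower in replicates 1 and 2, 164 were so in replicate 3, 652 lay within 2-fold and 33 were at least 2-fold higher. Replicate 3 by itself had 627 genes at least 2-fold higher and 609 lower with replicates 1 and 2 both within 2-fold. The scatter of all genes shows both arms.

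**Figure D4:**
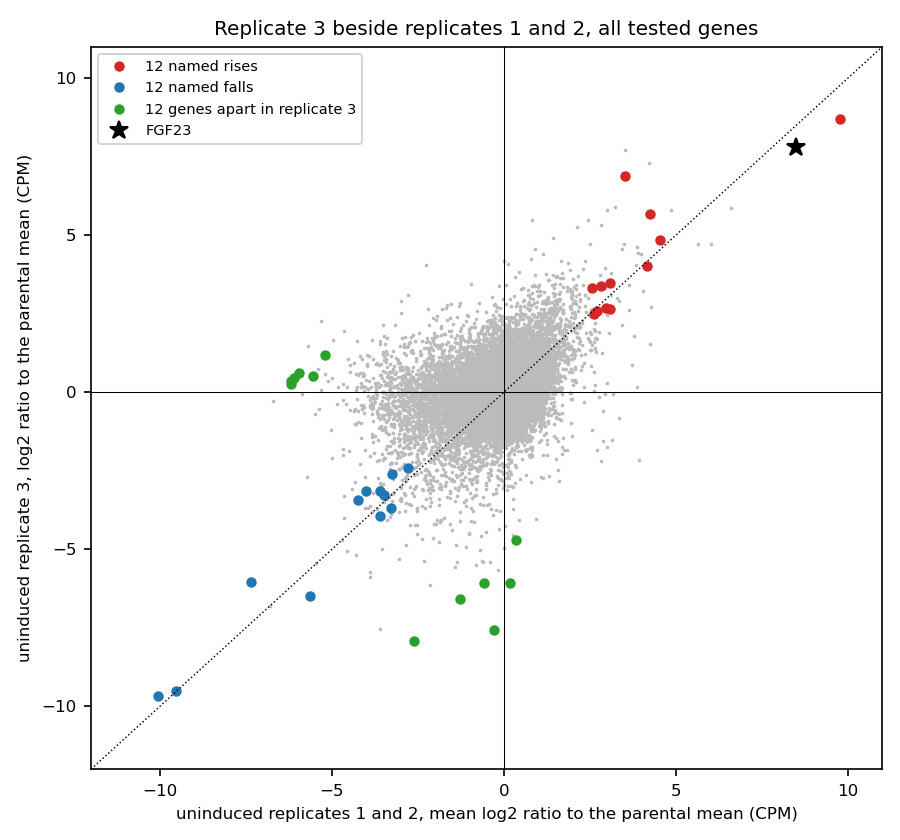
Log2 CPM ratio to the parental mean in uninduced replicate 3 (vertical) against the mean of replicates 1 and 2 (horizontal) for each of 15778 genes (grey); the dotted line marks equal values. FGF23 (star) and the 12 rises (red) and falls (blue) have the same sign on both axes, while the 12 genes that set replicate 3 apart (green) lie far from the line.

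Of the genes that set replicate 3 apart, 6 were lowest in that library. CAT, catalase, measured 10.9, 9.92 and 0.0347 TPM in uninduced replicates 1, 2 and 3, against 22.2, 19.2 and 19.6 TPM in parental libraries. PBDC1 measured 17.8, 18.05 and 0.243 TPM in uninduced and 29.7, 24.1 and 22.8 TPM in parental libraries. SLC38A5, an amino acid transporter, measured 22.6, 16.5 and 0.821 TPM in uninduced and 24.2, 25.004 and 22.8 TPM in parental libraries. NPW, a neuropeptide, MARCHF4, a ubiquitin ligase, and HTATIP2 were the other 3 with replicate 3 lowest, at 0, 0.0156 and 0.0625 TPM there. MARCHF4 was also low in the other two, at 3.36 and 0.401 TPM in replicates 1 and 2, against 8.07, 14.8 and 12.7 TPM in parental libraries. The same genes were low in doxycycline-treated replicate 3, where CAT was at 0 and PBDC1 at 0.324 TPM.

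In the other direction, replicate 3 lay within or above the parental range while replicates 1 and 2 had nearly lost it. GOLGA8A, a golgin, measured 0.279, 0.207 and 32.4 TPM in uninduced and 22.7, 23.5 and 31.1 TPM in parental libraries. HERC2P2, a pseudogene, measured 0.366, 0.179 and 27.1 TPM in uninduced and 20.2, 15.5 and 24.4 TPM in parental libraries. HOXD4, a homeobox gene, measured 0.112, 0.0871 and 23.6 TPM in uninduced and 16.6, 21.2 and 25.3 TPM in parental libraries. GOLGA8B, HERC2P3 and MIR5047, a microRNA precursor row of short length, were likewise low in replicates 1 and 2, and in replicate 3 their log2 ratios to the parental mean were 0.35, 1.20 and 0.60. GOLGA8A, HERC2P2 and HOXD4 share 77.1%, 78.8% and 78.2% of their words with other genes, so these levels are uncertain. NEAT1, a nuclear long noncoding RNA added after its values were seen, measured 3.45, 2.59 and 163 TPM in uninduced and 56.6, 70.1 and 104 TPM in parental libraries. None of these 13 genes was called in the comparison of all 3 with parental cells.

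**Figure D5:**
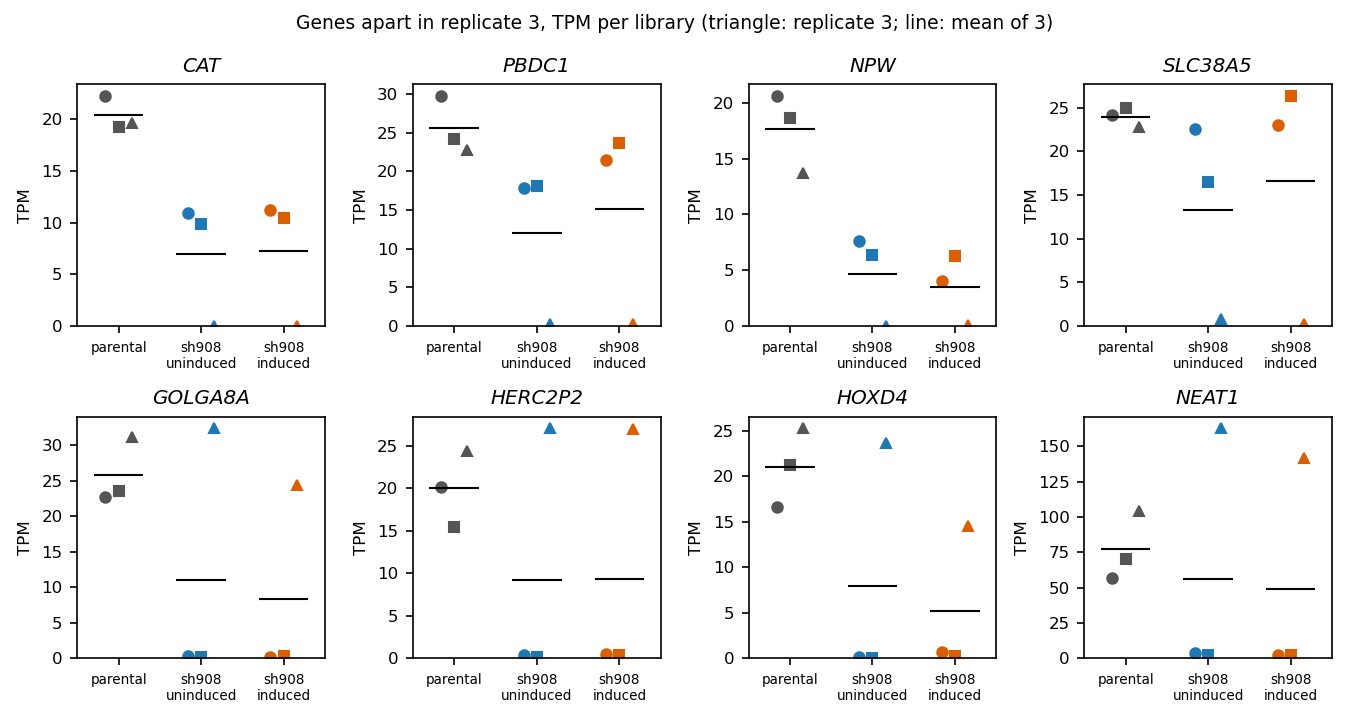
TPM (vertical axes, each from 0) of 8 genes that set replicate 3 (triangles) apart from replicates 1 and 2 (circles and squares); lines are means of 3. CAT, PBDC1, NPW and SLC38A5 are at 0.821 TPM or less in replicate 3 of both sh908 groups, and GOLGA8A, HERC2P2, HOXD4 and NEAT1 are at 3.45 TPM or less in replicates 1 and 2 of both.

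By chromosome, the medians of the log2 ratio lay within 0.25 of 0 in every uninduced library except on chromosomes 7, 13, 19 and 22. Chromosome 19 was highest in replicates 1 and 2, at 0.42 and 0.39 against 0.14 in replicate 3, over 821 genes, and chromosome 22 had 0.28, 0.30 and 0.05 over 314 genes. Chromosome 13 was low in all 3, at -0.33, -0.40 and -0.20 over 211 genes, and LMO7 and POSTN lie on it. Chromosome 7 was low in replicate 3, at 0.02, -0.06 and -0.31 over 584 genes. These are descriptions of expression and were not set against DNA copy number.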

How the data were processed

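The authors deposited 1 table per library with 177816 transcripts. Per the file headers it held the estimated count, the TPM value and other values, namely length and effective length. Per the submitters' processing notes, fastp 0.19.5, kallisto 0.46.2 and the builds hg38 and GRCh38.p14 were used, with no role stated. Per the labels, libraries were made with a stranded TruSeq mRNA kit. Accessions matched RefSeq genes of GRCh38.p14 for 169966 transcripts (95.6%). Transcripts without a gene held 0.95% to 1.29% of counts in the 6 libraries and were left out.

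Estimated counts were summed per gene, rounded to whole numbers, filtered with filterByExpr, scaled by TMM and tested with edgeR 4.0.16 (quasi-likelihood, robust) on the 3 uninduced and 3 parental libraries without covariates. Genes at an FDR under 0.05 were called. Log2 CPM used a prior count of 2. Beside FGF23 and the channel and fusion genes, those named were the 12 rises and 12 falls largest in their weakest uninduced library among called genes without overlap whose log2 CPM averaged 1 or more, up to 4 called genes per list by size, and 6 each way that set replicate 3 apart. Some genes that this rule took are not reported here. Members and lists were chosen with earlier results of these data known. The script was tested on simulated data. Alternatives were DESeq2 1.42.0 and its size factors, limma 3.58.1 voom, no filter, all 45 libraries, a replicate block, an effective length offset, a fold threshold, each library left out and, added after seeing the data, protein-coding genes only and removal of GC and length trends. Intervals and floors cover counting error only, since the reads carry no molecular identifiers and may repeat a molecule.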

Additional observations from a re-analysis of the deposited data

Results flagged for a closer look

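FGF23 RNA was also present in libraries outside the comparison. The 3 doxycycline-treated sh908 libraries measured 11.95, 11.1 and 17.9 TPM, a mean of 13.6 TPM, while the parental libraries were at 0. These libraries were looked at because their labels name the same line and hairpin, and they did not enter the test. The value is given without an explanation.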

How the results depend on the processing

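Of 2388 called genes (1375 higher, 1013 lower, 2388 without overlap), the counts stayed within 1.5 times under DESeq2 size factors, limma voom, no filter on low counts, the effective length offset, protein-coding genes only and removal of GC and length trends. DESeq2 gave 4169 (2289 higher, 1880 lower, 4112 without overlap) and the fit of all 45 libraries 7558 (3699, 3859 and 6399). A test against a log2 fold change of 1 gave 48 (33, 15 and 48). Leaving out 1 library gave 2 to 10202 called genes, 0 to 4761 higher, 2 to 5441 lower and 2 to 10163 without overlap. The cause was not tested. The replicate block gave 319 (218, 101 and 319). Same-numbered libraries deviated together at r of 0.0455, 0.0867 and 0.250, not all above 0.1, so the numbers were not taken as pairs, and only uninduced replicate 3 correlated best with its own number. EWSR1, at 0.02, changed sign with limma voom (-0.0074), the replicate block (-0.023), protein-coding genes only (-0.034) and libraries left out (-0.11 to 0.24). Of the 92 called genes that the naming rule took, 91 kept the call under DESeq2, 88 under limma voom, 79 with GC and length trends removed, 32 under the replicate block and 20 in the test against a log2 fold change of 1, and all kept their direction there. With DESeq2 size factors the median over all genes stayed at 0.01. Depth limits genes near 0, such as KCNN2 and KL, which were not tested.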
